A study of Mus musculus with 2 samples.

Results

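The genes described here are 10 that encode parts of the desmosome: the desmogleins Dsg1a and Dsg3, the desmocollins Dsc1, Dsc2 and Dsc3, the plaque proteins Jup, Pkp1, Pkp3 and Dsp, and the membrane protein Perp. They were chosen by symbol, and all 10 were present among the 31053 genes of the count table. Their UMIs (unique molecular identifiers, each standing for 1 captured RNA molecule) were counted in epithelial cells of mouse dorsal skin, in 1 droplet single-cell library per genotype. The groups were wild type (WT) and Chrna5-/- (knockout, KO), the latter lacking the alpha 5 subunit of the nicotinic acetylcholine receptor. Both groups were female mice aged 6 to 8 weeks, and both had received 62.5 mg of 5% imiquimod cream on shaved back skin daily for 6 days, with the skin taken on day 7. Imiquimod activates Toll-like receptors and inflames mouse skin in a way that resembles psoriasis, so neither library shows untreated skin. The knockout line had been backcrossed to C57BL/6N for over 10 generations, while the protocols also name C57BL/6J. The labels give 5 mice per group. They leave unstated how many of them went into a library and which piece of Chrna5 was deleted. Viable cells were sorted after collagenase digestion. With 1 library per genotype there is no replicate and no test: genotype and library cannot be told apart, and every interval below is a 95% interval of counting error only.

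Desmosomes are spot-like junctions that tie the keratin filaments of neighbouring keratinocytes together. Desmogleins and desmocollins are cadherins that bind across the gap between the cells. Plakoglobin (Jup) and the plakophilins (Pkp1, Pkp3) hold the cadherin tails, and desmoplakin (Dsp) links this plaque to keratin. Perp is a tetraspan membrane protein needed for stable desmosomes in stratified epithelia. In epidermis the desmosome is rebuilt as cells leave the basal layer: Dsg3 is a cadherin of the lower layers, while Dsg1 and Dsc1 belong to the upper ones.

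The promoters of Dsp and Jup are shown because these plaque genes followed the mean of the set closely (see the correlations further down), and because 2 of the 10 members had an entry in the RefSeq promoter table (GRCm38.p6, the same assembly as mm10). Each line holds the 250 bases upstream of the annotated start, 5′ to 3′ on the gene's strand, and capitals mark the GC box letters GGGCGG or their reverse complement CCGCCC. Dsp lies at chr13:38151044-38151293 on the plus strand and Jup at chr11:100397791-100398040 on the minus strand.
Dsp: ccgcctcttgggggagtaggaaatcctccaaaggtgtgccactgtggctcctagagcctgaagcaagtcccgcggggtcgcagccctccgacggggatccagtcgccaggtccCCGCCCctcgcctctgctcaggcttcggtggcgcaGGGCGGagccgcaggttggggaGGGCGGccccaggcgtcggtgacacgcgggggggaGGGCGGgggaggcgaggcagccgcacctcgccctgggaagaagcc
Jup: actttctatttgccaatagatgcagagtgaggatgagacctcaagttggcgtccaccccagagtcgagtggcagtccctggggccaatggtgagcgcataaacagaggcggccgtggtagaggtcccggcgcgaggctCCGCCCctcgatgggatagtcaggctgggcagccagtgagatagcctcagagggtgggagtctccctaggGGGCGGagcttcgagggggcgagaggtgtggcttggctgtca
The GC box was found 4 times in the Dsp window and 2 times in the Jup window, and at least once in 32.7% of 32851 promoter windows of the same length. Neither window held the AP-1 letters TGANTCA (in 6.75% of all windows), the Grainyhead letters AACCNGTT (1.79%) or the TATA letters TATAAA (12.4%), each searched on both strands. A match is a run of letters and not a measured binding site.

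In mm10, with the GENCODE annotation, the 5 cadherin genes lie together on chromosome 18. Dsc3 (ENSMUSG00000059898) spans 19960930 to 20002351, Dsc2 (ENSMUSG00000024331) 20030633 to 20059554 and Dsc1 (ENSMUSG00000044322) 20084184 to 20114871, all on the minus strand. Dsg1a (ENSMUSG00000069441) spans 20310811 to 20343350 and Dsg3 (ENSMUSG00000056632) 20510274 to 20547459, both on the plus strand. The plaque genes are spread over the genome. Dsp (ENSMUSG00000054889) is on chromosome 13 at 38151294 to 38198577 on the plus strand, and Jup (ENSMUSG00000001552) on chromosome 11 at 100368958 to 100397763 on the minus strand. Pkp1 (ENSMUSG00000026413) is on chromosome 1 at 135871395 to 135919207 on the minus strand, and Pkp3 (ENSMUSG00000054065) on chromosome 7 at 141078218 to 141090510 on the plus strand. Perp (ENSMUSG00000019851) is on chromosome 10 at 18845020 to 18857073 on the plus strand. The annotation places short uncertain gene models over Dsp (Gm10129, opposite strand) and Pkp1 (Gm36938, same strand), and neither model is a row of the count table.

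Of 14557 WT and 10886 KO barcodes, holding 147260653 and 123839924 UMIs, epithelial cells were taken by markers. Over all kept cells Chrna5 itself had 12 UMIs in WT and 6 in KO, too few to check the genotype labels. Epithelial cells were those with at least 3000 UMIs, with keratin and other epithelial markers at 30 or more UMIs per 10000, and with markers of other skin cell types at 3 or fewer per 10000. Epithelial cells numbered 3225 in WT (median 21772 UMIs) and 2736 in KO (median 19290). A further 4851 WT and 1019 KO barcodes carried epithelial markers but had fewer UMIs than the minimum, so the kept cells are the deeper part of each library. The libraries shared 49 barcodes, none of them among the epithelial cells of both.

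Epithelial cells were divided into 7 classes by marker levels in each cell, none of the markers being a desmosome gene. Suprabasal-like cells (338 WT, 247 KO) had 16 or more Krt1 and Krt10 UMIs per 10000, and upper follicle-like cells (382 and 527) had 16 or more of Krt79. Outer follicle-like cells (710 and 541), inner follicle-like cells (64 and 182), sebaceous-like cells (117 and 124) and cycling cells (424 and 161) were set by longer lists. The remaining cells with Krt5 and Krt14 (1176 and 903) are called Krt5/Krt14 cells and not basal cells, because haemoglobin genes led their contrast with the other classes and none of the fixed basal markers was among the leading 10. Haemoglobin stood at 630 CPM (UMIs scaled to a class total of 1000000) in these WT cells and at 50.2 CPM in the KO cells. Without the cells holding more than 1 haemoglobin UMI per 10000, no call on a desmosome gene was different, and Pkp1 in these cells, for example, had a ratio of 0.615 in place of 0.618. Inner follicle-like cells were led by Wfdc18, Cldn3 and Krt75, but also carried outer follicle markers at 3113 (WT) and 4262 CPM (KO). Outer follicle-like cells, gated after them, had these markers at 2730 and 2635 CPM, so the classes overlap in these markers. The classes are ranges on a marker scale: between 19.0% and 50.8% of the cells of a class and library lay near a limit. They also differed in size between the libraries, with cycling cells at 13.1% of WT and 5.88% of KO epithelial cells, and upper follicle-like cells at 11.8% and 19.3%. When the same cells were clustered without the desmosome genes, 10 of 21 clusters drew 90% or more of their cells from 1 library. Suprabasal-like cells lay mostly in cluster 4 in WT (74.9%) and cluster 19 in KO (71.3%). The largest cluster also differed for Krt5/Krt14 cells (9 and 12), outer follicle-like (6 and 20), cycling (2 and 0) and upper follicle-like cells (3 and 19), and was shared for inner follicle-like (17) and sebaceous-like cells (18).

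Free RNA in the droplets can put UMIs into cells that do not make a gene, so cells of other types give a rough floor for these values. Fibroblast-like cells were shallower than suprabasal-like cells (depths below), so the floor in CPM may not be the same in both. In cells gated on fibroblast markers, which should not make desmosomes, Perp stood at 63.2 in WT and 34.1 CPM in KO, Jup at 38.9 and 26.2, and Dsp at 36.4 and 21.3. The cadherins stood between 0.478 CPM (Dsc2) and 11.5 CPM (Dsc3) in WT, and between 0.253 and 6.14 CPM in KO. These fibroblast levels came to between 3.37% (Dsc3) and 8.16% (Jup) of the epithelial level in WT and between 1.20% (Dsg1a) and 5.08% (Jup) in KO. The fibroblast level was lower in KO for all 10 genes, although the intervals of the ratio held 1 for Dsg1a (0.367 to 1.33) and Dsc2 (0.117 to 1.98). Cells gated on leukocyte markers differed from this for Dsg1a, at 0.662 in WT (6 UMIs) and 1.92 CPM in KO (12 UMIs), for Jup, at 35.2 and 38.1 CPM, and for Dsc2, with 1 UMI in each library. The floor's share in the ratios below was not tested. After each cell was thinned to 2000 UMIs, a Dsg1a UMI was found in 27.8% of WT and 38.5% of KO suprabasal-like cells (91.4% and 97.6% before thinning). The thinned share was 0.288% and 0.407% in fibroblast-like cells, whose median depths were 7580.5 and 6860.0 UMIs against 37372 and 32706 in suprabasal-like cells.

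Within each library, most desmosome genes stood higher in suprabasal-like than in Krt5/Krt14 cells. The ratio was above 1 for 8 of the 10 members in both libraries, the exceptions being Dsg3 and Dsc2, and among the 8 the interval held 1 for Dsc3 in WT. The classes were set on other genes of the same cells, so these are descriptions without a test. The share of all genes with a ratio above 1 between these classes was not counted, so the 8 cannot be set against it. All 10 genes together made up 2958 CPM of Krt5/Krt14 cells and 6097 CPM of suprabasal-like cells in WT, and 2506 and 6071 CPM in KO. Single cells showed the same step. The median cell carried 25.8 desmosome UMIs per 10000 among WT Krt5/Krt14 cells (10th to 90th percentile 15.2 to 44.4) and 60.3 among WT suprabasal-like cells (44.4 to 75.9). In KO the medians were 22.2 and 58.5.

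**Figure D1:**
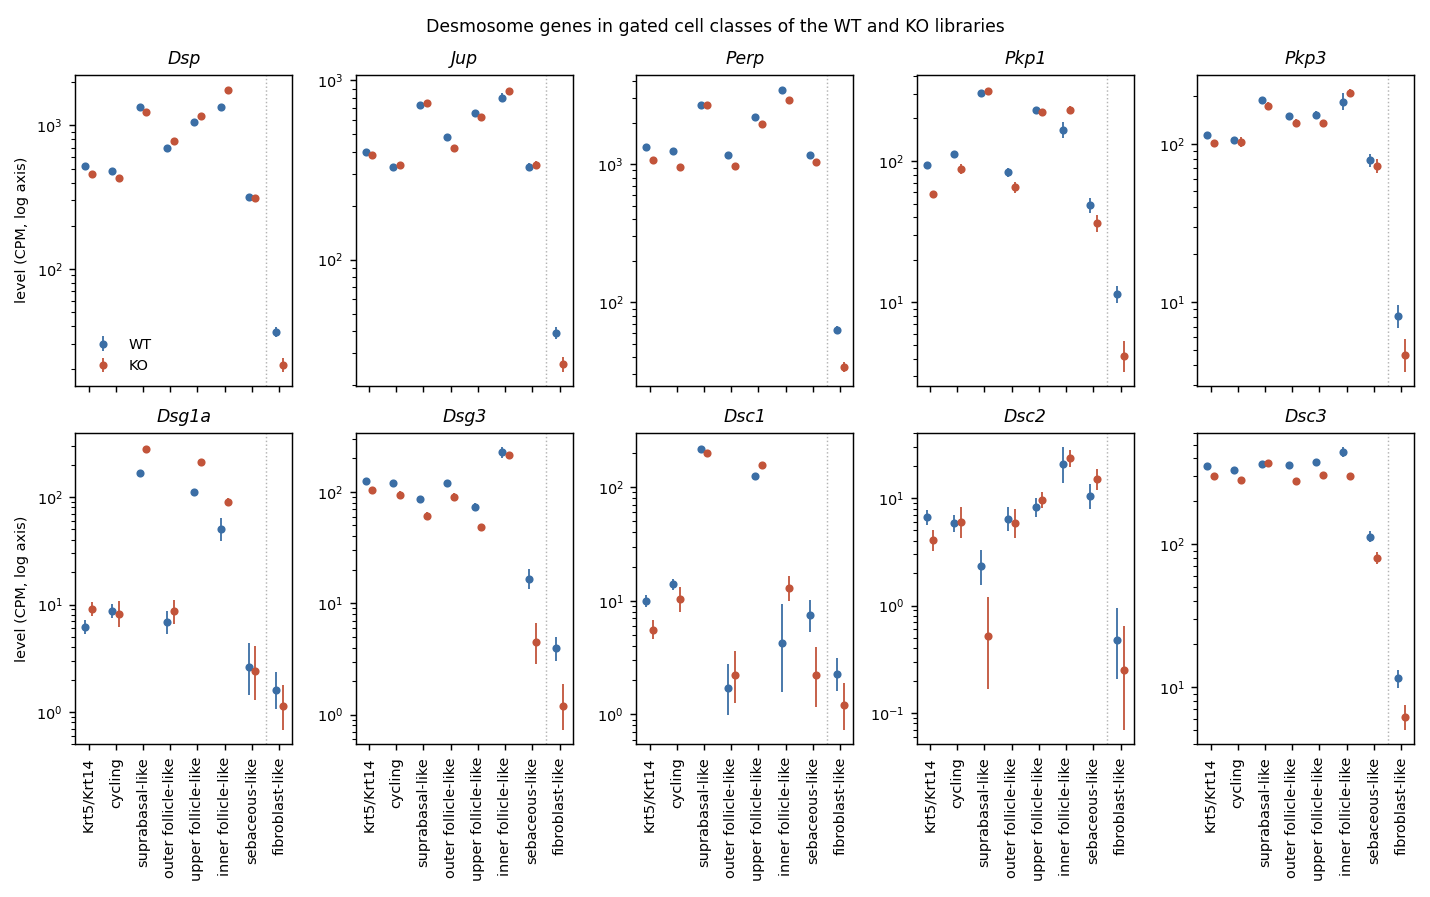
Level of each desmosome gene (CPM, log axis with a range of its own in each panel) in 7 epithelial classes and in fibroblast-like cells, right of the dotted line, of the WT (blue) and KO (red) library; bars are exact 95% Poisson intervals of counting error. Dsg1a and Dsc1 span more than an order of magnitude between classes, from 2.41 to 280 CPM and from 1.72 to 217 CPM, while Jup lies between 327 and 872 CPM.

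The differentiation cadherins made the steepest step. Dsg1a stood at 6.17 CPM in WT Krt5/Krt14 cells and at 169 CPM in WT suprabasal-like cells, a ratio of 27.3 (23.3 to 32.2). In KO it stood at 9.12 and 280 CPM, a ratio of 30.7 (26.4 to 35.8). With each cell thinned to 2000 UMIs the ratios were 52.2 and 41.4, values without an interval that rest on few Krt5/Krt14 cells with a Dsg1a UMI (0.680% of WT and 1.11% of KO cells). Dsc1 went from 9.93 to 217 CPM in WT (21.9-fold) and from 5.58 to 198 CPM in KO (35.5-fold). Upper follicle-like cells came next for both genes, with Dsg1a at 112 in WT and 214 CPM in KO, and Dsc1 at 125 and 157 CPM. The pair differed in inner follicle-like cells, where Dsg1a was at 50 and 90.1 CPM and Dsc1 at 4.29 in WT and 13.0 CPM in KO. In outer follicle-like cells Dsc1 (1.72 and 2.23 CPM) was at or near the fibroblast level of 2.27 and 1.20 CPM, which is read as background.

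Dsg3, the desmoglein of the lower layers and the target of autoantibodies in pemphigus vulgaris, ran the other way. It was at 125 in WT and 105 CPM in KO Krt5/Krt14 cells and at 85.8 and 60.6 CPM in suprabasal-like cells, ratios of 0.687 (0.642 to 0.736) and 0.578 (0.527 to 0.634). Inner follicle-like cells had the highest Dsg3 level of the 7 classes in both libraries, at 226 and 214 CPM, and sebaceous-like cells the lowest, at 16.6 and 4.45 CPM. Dsc2, the widely expressed desmocollin of simple epithelia and heart, was scarce throughout. Its levels were highest in inner follicle-like cells (20.7 CPM in WT, 23.4 CPM in KO), followed by sebaceous-like cells (10.4 and 15.0), and lowest in suprabasal-like cells (2.31 and 0.519 CPM, from 30 and 5 UMIs). Dsc3, the desmocollin of the lower layers, was even across most classes. Outside sebaceous-like cells (113 and 80.5 CPM) it stayed between 330 and 443 CPM in WT and between 276 and 373 CPM in KO, and suprabasal-like over Krt5/Krt14 cells came to 1.03 (0.995 to 1.07) in WT and 1.23 (1.18 to 1.29) in KO.

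The shares of single genes in the cadherin UMIs differed between the classes. Counts are not divided by transcript length, so a share compares cells for the same genes and not genes with each other. Dsg1a and the related Dsg1b made up 20.4% of all desmoglein UMIs in WT Krt5/Krt14 cells (19.4 to 21.5) and 76.3% in WT suprabasal-like cells (75.1 to 77.5). The KO shares were 15.0% and 85.0%. Dsc1 made up 2.67% and 1.79% of desmocollin UMIs in Krt5/Krt14 cells and 37.1% and 34.6% in suprabasal-like cells. In sebaceous-like cells Dsg2, the desmoglein of simple epithelia, made up 52.6% of desmoglein UMIs in WT and 65.3% in KO, against 0.761% and 0.847% in suprabasal-like cells.

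**Figure D2:**
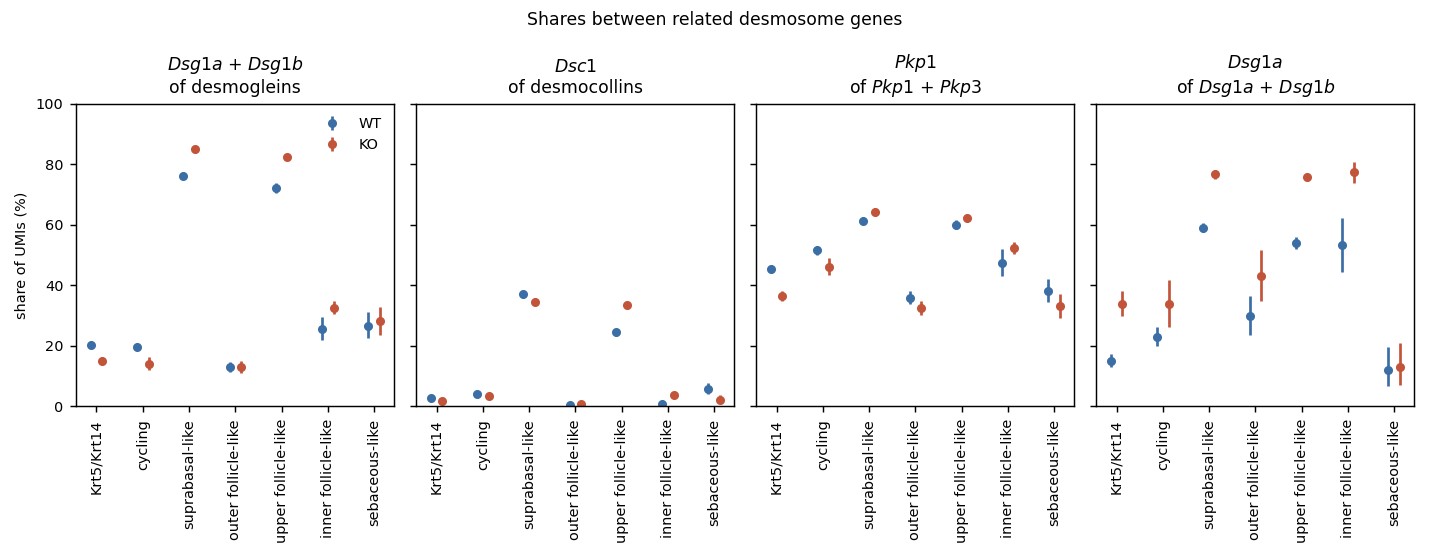
Share of UMIs (%, linear axis from 0 to 100) of Dsg1a and Dsg1b among desmogleins, Dsc1 among desmocollins, Pkp1 among Pkp1 and Pkp3, and Dsg1a among Dsg1a and Dsg1b, by class, in WT (blue) and KO (red), with exact 95% binomial intervals. The first 3 panels separate suprabasal-like and upper follicle-like cells from Krt5/Krt14 cells in both libraries, and in the last the KO share is above the WT share in 6 of 7 classes, as in suprabasal-like cells at 76.7% against 59.1%, with the sebaceous-like cells as the exception.

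Among the plaque genes, the plakophilin Pkp1 showed the largest step. It went from 94.5 to 303 CPM in WT, a ratio of 3.21 (3.05 to 3.37), and from 58.4 to 314 CPM in KO, a ratio of 5.38 (5.03 to 5.76). Pkp3 made a smaller step, from 114 to 190 CPM in WT (1.68-fold) and from 101 to 174 CPM in KO (1.72-fold). Pkp1 therefore made up 45.4% of the summed Pkp1 and Pkp3 UMIs of WT Krt5/Krt14 cells and 61.4% in suprabasal-like cells, and 36.6% and 64.3% in KO. Jup, which also serves adherens junctions, went from 400 to 726 CPM in WT and from 382 to 745 CPM in KO. Dsp went from 524 to 1338 CPM in WT, a ratio of 2.55, and from 459 to 1248 CPM in KO, a ratio of 2.72. Perp was the most counted member in every class. It was at 1324 CPM in WT Krt5/Krt14 cells and 2700 CPM in suprabasal-like cells, and at 1079 and 2677 CPM in KO.

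The highest levels of Dsp, Jup and Perp were not in suprabasal-like but in inner follicle-like cells, which also carried outer follicle markers. Dsp reached 1343 CPM there in WT, not distinct from the 1338 CPM of suprabasal-like cells, and 1769 CPM in KO. Perp reached 3425 and 2917 CPM, and Jup 800 and 872 CPM. The order of classes was the same in WT and KO for Dsp and for Jup. For Dsp it ran from inner follicle-like through suprabasal-like, upper follicle-like, outer follicle-like, Krt5/Krt14 and cycling to sebaceous-like cells (315 and 313 CPM). Sebaceous-like cells were lowest in both libraries for Dsp, Dsg1a, Dsg3, Dsc3, Pkp1 and Pkp3. Summed over the 10 genes they carried 2081 in WT and 1909 CPM in KO, against 6662 and 6640 CPM in inner follicle-like cells.

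The comparison of KO with WT asked whether loss of Chrna5 went with other levels of desmosome RNA in inflamed epidermis. Over all epithelial cells Dsg1a was higher in the KO library, and the ratios of the other 9 members lay between 0.795 and 1.16. Dsg1a stood at 45.3 CPM in WT (3965 UMIs) and 95 CPM in KO (6519 UMIs), a ratio of 2.10 (2.02 to 2.18). A gene is counted as higher or lower here when the ratio is 1.5-fold or more and its interval leaves out 1. By this rule 1 of the 10 members was higher, where 14.2% of 14952 measured genes were higher, and 0 were lower, where 8.89% were. The median log2 ratio of the members was 0.05 and that of all measured genes 0.09. The set as a whole came to 3657 in WT and 3748 CPM in KO.

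Of the other cadherins over all epithelial cells, Dsg3 was at 106 in WT and 83.9 CPM in KO (ratio 0.795, 0.769 to 0.822), and Dsc3 at 341 and 289 CPM (0.849). Dsc1 was at 55.6 and 64.3 CPM (1.16), and Dsc2 at 6.45 and 7.42 CPM (1.15). In the plaque, Dsp was at 723 and 832 CPM (1.15, 1.14 to 1.16) and Jup at 476 and 515 CPM (1.08). The plakophilins were nearly level, with Pkp1 at 144 and 143 CPM (0.989) and Pkp3 at 131 and 128 CPM (0.975). Perp was at 1629 and 1591 CPM (0.977). These pooled values also carry the different class sizes of the libraries. With the KO classes weighted as in WT, Dsg1a had a ratio of 1.69 and every other member a ratio under 1, without intervals. These were Dsp 0.979, Dsc1 0.979, Jup 0.978, Pkp3 0.919, Dsc2 0.911, Pkp1 0.878, Perp 0.870, Dsc3 0.858 and Dsg3 0.781. Dsp, Dsc1, Jup and Dsc2 thus had ratios above 1 in the pooled cells and under 1 after weighting.

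Within the classes, Dsg1a was higher in KO in the 3 classes where it was abundant. In suprabasal-like cells it was at 169 in WT and 280 CPM in KO (1.66, 1.57 to 1.76), in upper follicle-like cells at 112 and 214 CPM (1.91, 1.79 to 2.04), and in inner follicle-like cells at 50 and 90.1 CPM (1.80, 1.40 to 2.35). In Krt5/Krt14 cells the levels were 6.17 and 9.12 CPM (1.48, 1.19 to 1.83), just under the fold used here. In cycling, outer follicle-like and sebaceous-like cells Dsg1a was at 2.41 to 8.68 CPM in either library and the intervals held 1. With the cells in the top 10% of UMIs left out, the suprabasal-like ratio was 1.48 and the inner follicle-like ratio 1.47, both under the fold. The inner follicle-like value rested on 64 WT cells and 70 UMIs, and was also under the fold after thinning (1.36) and by clusters (1.30). Of the suprabasal-like cells, 154 in WT and 142 in KO also passed the Krt79 limit, and without them the ratio was 1.79. The upper follicle-like call held under all 10 alternatives tried, between 1.52 and 2.13. However, the markers of this class differed between the libraries. Granular layer markers made up 78.1 CPM of its WT cells but 338 CPM of its KO cells. Its upper follicle markers were also higher in KO (62623 against 86823 CPM), while its suprabasal markers were lower (17929 against 15845 CPM). Whether these marker differences bear on the Dsg1a ratio of this class was not tested.

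**Figure D3:**
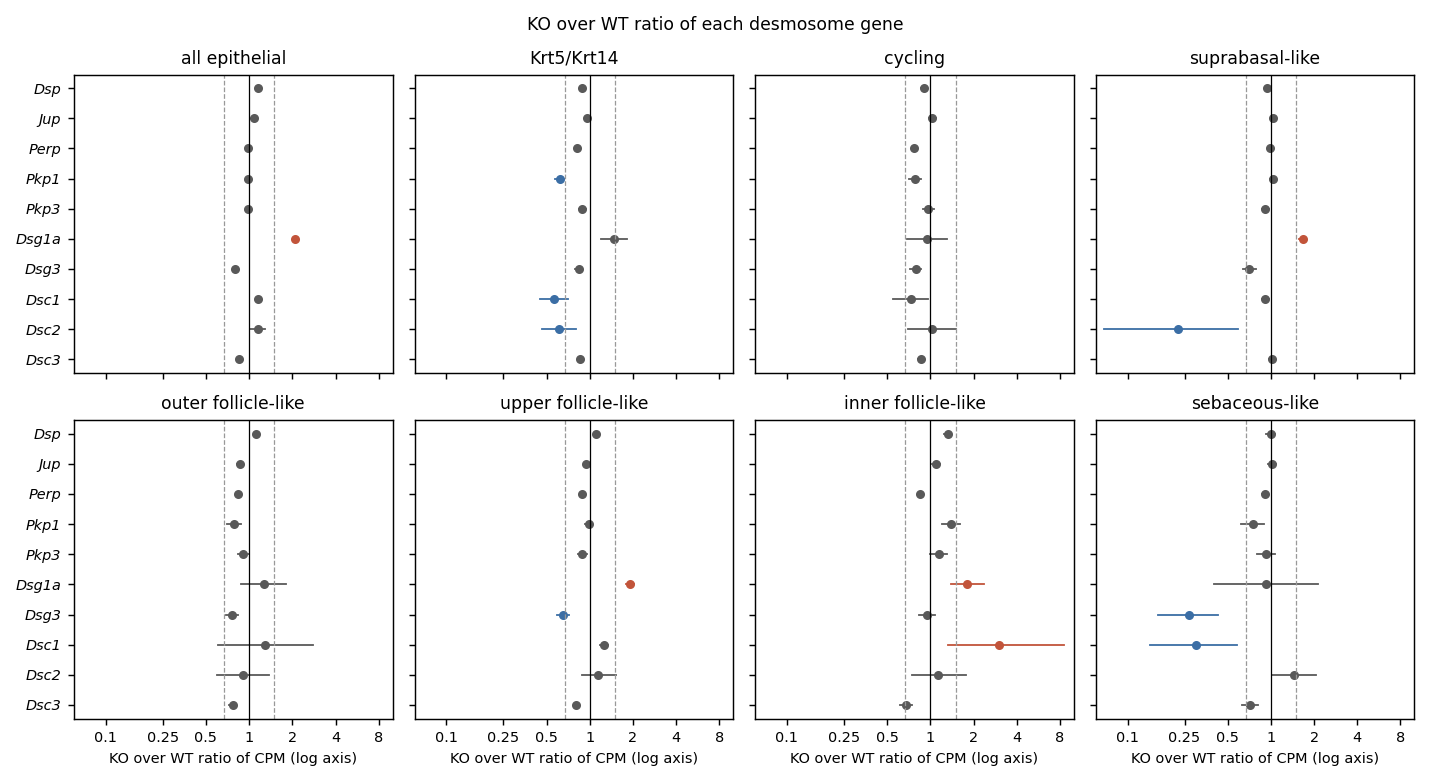
Ratio of KO over WT (log axis) for the 10 genes over all epithelial cells and in each class, with exact 95% intervals of counting error; the solid line marks 1 and the dashed lines 1.5-fold each way, and red and blue points are those counted as higher and lower in KO. Dsg1a stands to the right in the pooled cells (2.10) and in suprabasal-like, upper follicle-like and inner follicle-like cells, while Dsc1 lies on opposite sides in inner follicle-like (3.03) and sebaceous-like cells (0.299).

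By class, the counts of members over the fold stayed small. Suprabasal-like cells had 1 higher (14.3% of all measured genes there) and 1 lower (7.72%), and upper follicle-like cells 1 higher (10.5%) and 1 lower (10.4%). Inner follicle-like cells had 2 higher (16.1%) and 0 lower (7.40%), and sebaceous-like cells 0 higher (9.97%) and 2 lower (11.9%). Krt5/Krt14 cells had 0 higher (11.3%) and 3 lower (11.5%). Outer follicle-like cells had 0 either way (11.5% and 6.15% of all genes), and so did cycling cells (14.1% and 8.30%). The median log2 ratio of the members lay between -0.24 in Krt5/Krt14 cells and 0.18 in inner follicle-like cells, against 0.04 and 0.17 for all measured genes of these classes. Of 80 pairs of a gene with a class or with all epithelial cells, 12 were over the fold, and 5 of these 12 held under every alternative that could measure them. Those 5 were Dsg1a in all epithelial and upper follicle-like cells, Dsg3 in upper follicle-like and sebaceous-like cells, and Dsc1 in sebaceous-like cells. The last rests on a KO level of 2.23 CPM, near the fibroblast level of 1.20 CPM. The 12 are to be read beside the shares of all measured genes given above. How often calls on other genes held under the alternatives was not counted. The sebaceous-like class differed in its markers between the libraries. Its WT cells carried more of the cycling markers (287 against 56.2 CPM) and of the basal markers (5824 against 3668). They carried less of the sebaceous gland markers (9645 against 15685). Whether these differences bear on the Dsg3 and Dsc1 ratios of this class was not tested.

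Dsg3 passed the fold as lower in KO in 2 classes. It stood at 73.7 in WT and 48.1 CPM in KO upper follicle-like cells (0.652, 0.589 to 0.722), and at 16.6 and 4.45 CPM in sebaceous-like cells (0.269, 0.164 to 0.426, from 89 and 24 UMIs). The sebaceous-like KO value (4.45, 2.85 to 6.62) was above the fibroblast level of that library (1.20, 0.724 to 1.88 CPM). In suprabasal-like cells Dsg3 was at 85.8 and 60.6 CPM (0.706, 0.638 to 0.781), and scaling by the median ratio of genes gave 0.647, over the fold. The Dsg3 ratio was also under 1, short of the fold, in Krt5/Krt14 (0.839, 0.795 to 0.887), cycling (0.788, 0.719 to 0.862) and outer follicle-like cells (0.758, 0.687 to 0.836). Inner follicle-like cells were at 226 and 214 CPM, with an interval that held 1 (0.837 to 1.08). In upper follicle-like cells, whose markers also differed between the libraries, Dsg1a and Dsg3 thus differed in opposite directions. Dsg3 made up 25.6% of desmoglein UMIs there in WT and 14.1% in KO.

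The desmocollins differed from class to class. Dsc1 was lower in KO in Krt5/Krt14 cells, at 9.93 and 5.58 CPM (0.562, 0.447 to 0.704), but this value turned with the cells chosen: it was 1.12 without the top 10% of cells by UMIs and 3.25 with classes taken from clusters. In sebaceous-like cells Dsc1 was at 7.45 and 2.23 CPM (0.299, 0.143 to 0.581, from 40 and 12 UMIs). The interval of that KO level (1.15 to 3.89 CPM) overlapped that of KO fibroblast-like cells (0.724 to 1.88 CPM), so it is not distinct from background. In inner follicle-like cells Dsc1 was at 4.29 and 13.0 CPM (3.03, 1.32 to 8.55), from 6 UMIs in WT and 66 in KO. That call was lost without the top 10% of cells (1.31), with a stricter gate (3.54, with an interval that held 1) and by clusters (2.38). Where Dsc1 was abundant the libraries were close, at 217 and 198 CPM in suprabasal-like cells (0.912) and 125 and 157 CPM in upper follicle-like cells (1.25). Dsc2 was lower in Krt5/Krt14 cells, at 6.62 and 4.04 CPM (0.610, 0.463 to 0.798), and in suprabasal-like cells (0.225, 0.0681 to 0.585, from 30 and 5 UMIs). The first call was lost by clusters (0.787) and with stricter limits on markers of other cell types (0.677), and the second by clusters. The KO suprabasal-like level of 0.519 CPM was also close to the fibroblast level of that library (0.253, 0.0690 to 0.649). Dsc3 was counted in neither direction in any class, with ratios from 0.680 in inner follicle-like to 1.02 in suprabasal-like cells. Scaling by the median ratio of genes took the former to 0.623, over the fold.

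In the plaque, Pkp1 in Krt5/Krt14 cells was over the fold in the main setting. It stood at 94.5 in WT and 58.4 CPM in KO (0.618, 0.576 to 0.663), but at 0.739 without the top 10% of cells and 0.927 by clusters. In cycling and outer follicle-like cells its ratios were 0.778 and 0.784, and in suprabasal-like cells 1.04 (0.988 to 1.09). The step of Pkp1 between Krt5/Krt14 and suprabasal-like cells was accordingly 3.21-fold in WT and 5.38-fold in KO, from a lower start and not from a higher end. Dsp, Jup, Pkp3 and Perp passed the fold in no class. Dsp ranged from 0.877 in Krt5/Krt14 cells to 1.32 in inner follicle-like cells, Jup from 0.867 in outer follicle-like to 1.09 in inner follicle-like cells, Pkp3 from 0.889 to 1.14, and Perp from 0.773 in cycling to 0.992 in suprabasal-like cells. Summed over the 10 genes, KO over WT was 0.847 in Krt5/Krt14 and 0.846 in cycling cells and 0.996 in suprabasal-like and 0.997 in inner follicle-like cells.

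Dsg1a has a close relative beside it, Dsg1b (ENSMUSG00000061928), at 20376729 to 20410196 of chromosome 18 on the plus strand. The pair shifted against each other between the libraries. Over all epithelial cells Dsg1b was at 50.9 in WT and 37.2 CPM in KO (0.731, 0.696 to 0.767), while Dsg1a was higher in KO. Dsg1a therefore made up 47.1% of the summed Dsg1a and Dsg1b UMIs in WT (46.0 to 48.2) and 71.9% in KO (70.9 to 72.8). The Dsg1a share was above WT in 6 of 7 classes: 59.1% and 76.7% in suprabasal-like cells, 53.9% and 76.0% in upper follicle-like, 53.4% and 77.6% in inner follicle-like, 15.0% and 33.9% in Krt5/Krt14, 23.0% and 33.8% in cycling, and 29.8% and 43.1% in outer follicle-like cells. The intervals overlapped in outer follicle-like cells, and sebaceous-like cells were level at 12.2% and 12.9%. Added together, Dsg1a and Dsg1b came to 96.2 in WT and 132 CPM in KO (1.37, 1.33 to 1.42), under the fold. The sum was higher in KO in suprabasal-like (285 and 365 CPM, 1.28) and upper follicle-like cells (208 and 282 CPM, 1.36), and lower in Krt5/Krt14 (41.1 and 26.9 CPM, 0.655) and cycling cells (37.7 and 24.4 CPM, 0.646).

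The assignment of reads between these relatives is uncertain. Their longest annotated transcripts (5686 bases for Dsg1a, 3965 for Dsg1b) share 1307 windows of 90 bases, 23.4% of the Dsg1a and 33.7% of the Dsg1b windows. None of the 911 windows in the last 1000 bases of either transcript was shared, and droplet libraries of this kind are usually read near the 3′ end. The processing notes name Cell Ranger but do not say how a read that fits several genes was counted, and this was not examined. Whether the mice of the 2 groups differ in sequence in this stretch of chromosome 18 was not tested.

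To compare cells of like maturity, Krt5/Krt14, cycling and suprabasal-like cells without Krt79 were divided by their Krt1 and Krt10 level, an arrangement chosen after the class values were seen. The Dsg1a interval lay above 1 in 4 of 5 bins. Dsg1a was at 2.58 in WT and 4.52 CPM in KO with 0 to 1 Krt1 and Krt10 UMIs per 10000 (1.75, 1.29 to 2.37), and at 9.41 and 10.4 CPM with 1 to 4 (1.10, 0.739 to 1.62). With 4 to 16 UMIs it was at 26.4 and 78.6 CPM (2.98, 2.14 to 4.14), with 16 to 64 at 72.9 and 128 CPM (1.75, 1.43 to 2.13), and with 64 or more at 190 and 276 CPM (1.45, 1.32 to 1.60, under the 1.5-fold limit). The bin from 4 to 16 held 85 WT and 37 KO cells. Dsg1b went the other way in all 5 bins, with ratios from 0.429 to 0.699. Dsc1, which shares the upper-layer pattern of Dsg1a, had ratios under 1 in all 5 bins. Its interval held 1 with 0 to 1 UMIs (0.699 to 1.32) and with 1 to 4 (0.460 to 1.02). At 64 or more Dsc1 was at 242 and 185 CPM (0.766, 0.691 to 0.848).

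**Figure D4:**
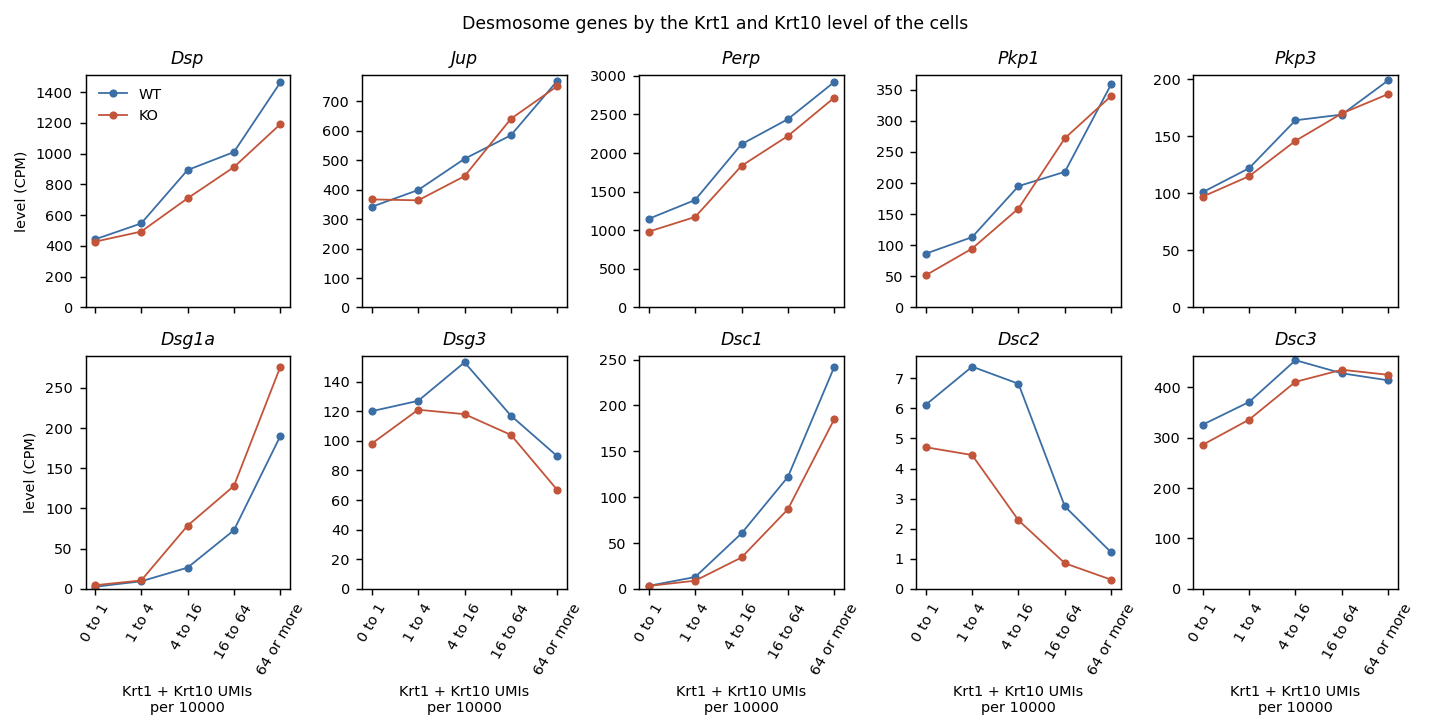
Level of each gene (CPM, linear axis from 0, with a range of its own in each panel) in Krt5/Krt14, cycling and suprabasal-like cells without Krt79, arranged by their Krt1 plus Krt10 UMIs per 10000, in WT (blue) and KO (red); points are sums over the cells of a bin, with no error bars drawn. Dsg1a reaches 276 CPM in KO and 190 CPM in WT in the last bin, Dsc1 185 and 242 CPM, and Dsc2 comes down to 0.304 and 1.21 CPM.

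Among the other members, Dsc2 had ratios from 0.770 (0.599 to 0.984, from 206 and 98 UMIs) in the lowest bin to 0.251 in the highest (5 and 1 UMIs), and its interval held 1 in every bin but the lowest. Dsp climbed from 442 to 1462 CPM in WT and from 427 to 1191 CPM in KO, so that its ratio was 0.968 in the lowest and 0.815 (0.782 to 0.848) in the highest bin. Pkp1 climbed from 86.4 to 359 CPM in WT and from 51.7 to 340 CPM in KO. Its ratio was 0.599 (0.558 to 0.642) in the lowest bin, 1.25 from 16 to 64 and 0.947 in the highest. Perp lay between 0.842 and 0.930 throughout. Dsg3 peaked at intermediate levels in WT, 153 CPM in the bin from 4 to 16, and was 0.746 (0.628 to 0.884) of WT in the highest bin.

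Genes around the desmosome were counted from lists written down for this work. Of 9 other desmosome and cornified-junction genes, 8 were measured over all epithelial cells, and 1 was higher in KO and 0 lower, against 14.2% and 8.89% of all measured genes. The higher one was Cdsn (corneodesmosin, an adhesive protein of the upper layers), at 24.9 and 38.2 CPM (1.53). Within suprabasal-like cells, however, Cdsn was lower, at 47.5 and 21.1 CPM (0.444, 0.377 to 0.521), and in upper follicle-like cells it was at 96.8 and 88.2 CPM. In inner follicle-like cells it was higher, at 107 and 170 CPM (1.59, 1.33 to 1.90). Both follicle classes held a larger share of the epithelial cells in KO, the inner follicle-like cells 1.98% in WT and 6.65% in KO. Pkp4, a plakophilin relative also found at adherens junctions, was at 74.0 and 129 CPM in Krt5/Krt14 cells (1.75), 66.7 and 125 CPM in cycling (1.88) and 23.5 and 45.6 CPM in suprabasal-like cells (1.94). It was also present in fibroblast-like cells, at 38.9 and 41.9 CPM. The most counted gene of this list was Ppl (periplakin) in WT, at 78.7 CPM, and Pkp4 in KO, at 91.7 CPM.

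Of 10 adherens junction genes, 0 passed the fold either way over all epithelial cells, against 14.2% (higher) and 8.89% (lower) of all measured genes. Cdh1 (E-cadherin), the most counted, was at 384 and 436 CPM (1.13), while Nectin4 had the highest ratio (1.41) and Vcl and Cdh3 the lowest (0.871). Of 10 hemidesmosome and basement membrane genes, which anchor basal cells to the matrix below, 3 were lower (8.89% of all measured genes) and 0 higher (14.2%). The 3 were Lama3 (0.564), Cd151 (0.637) and Itgb4 (0.662). The most counted were Col17a1 in WT (168 CPM, against 124 CPM in KO) and Dst in KO (96.6 and 129 CPM), and Dst also had the highest ratio (1.34). In suprabasal-like cells 6 of the 10 were higher in KO (14.3% of all measured genes there), at low levels, such as Dst at 16.3 and 46.7 CPM (2.86) and Col17a1 at 13.1 and 24.6 CPM (1.88). Trp63, a basal-layer transcription factor, was also higher in these KO cells, at 25.2 and 47.6 CPM (1.89). In inner follicle-like cells 7 of the 10 were lower (7.40% of all measured genes there). Of 11 epidermal transcription regulators, 1 was higher over all epithelial cells and 0 lower, against 14.2% and 8.89% of all measured genes. This was Notch1, a receptor and transcription regulator of early differentiation, at 80.7 and 127 CPM (1.57), and it passed the fold in all 7 classes, from 1.55 in suprabasal-like to 2.22 in upper follicle-like cells. Klf4, a barrier regulator and the most counted of the list, was at 1078 and 1505 CPM (1.40). Grhl3 was lower in suprabasal-like cells (0.565). Of 8 genes of desmosome turnover 0 passed the fold either way over all epithelial cells, against the same 14.2% and 8.89% of all measured genes. Their ratios ran from 0.834 (Egfr) to 1.31 (Adam10), and the most counted, Rab11a, was at 192 and 191 CPM.

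Over the 14 combinations of class and library, the members did not share a single profile. On log2(CPM + 10), the correlation of each gene with the mean of the other 9 was 0.97 for Pkp1, 0.93 for Dsp, 0.92 for Jup, 0.89 for Dsg1a and for Pkp3, and 0.88 for Perp. It was 0.67 for Dsc3, 0.61 for Dsc1, 0.38 for Dsg3 and -0.12 for Dsc2. These are descriptions over 14 points that share libraries and class totals. Among 11052 other genes, those most like the mean of the 10 were Evpl (envoplakin, a plakin of the cornified envelope and a member of the list above, r = 0.978), Pinlyp (0.975), Tmem40 (0.972), 4833423E24Rik (0.966) and Fchsd1 (0.963).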

How the data were processed

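Dorsal skin cells of imiquimod-treated mice were measured in 1 library per genotype. Each deposited matrix gives UMI counts of genes in barcodes, not normalized by the authors. Per the submitters' processing notes the tools were Cell Ranger 3.0.2 and Seurat 3.0 with mm10, while the matrix header names software version 3.1.0. Filters before deposit are not given in the sources used here.

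Kept barcodes had 200 or more genes and no more than 10% of UMIs from mitochondrial genes (13938 WT, 10233 KO). Classes were gated, in this order, on sebaceous, inner follicle, cycling, Krt1 and Krt10, Krt79, outer follicle and Krt5 and Krt14 markers per 10000 UMIs, with 14 WT and 51 KO epithelial cells left in no class. The gate limits were set after marker levels were seen. No doublet caller was run, and leaving out the top 10% of cells by UMIs stands in for it. UMIs were summed per class and library and scaled to CPM. KO over WT ratios have exact 95% intervals conditional on the summed count (scipy 1.17.1), shares have Clopper-Pearson and sums Poisson intervals. These cover counting error only. A gene was measured with 20 UMIs over both libraries. Clusters came from scanpy 1.11.5.

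The 10 members, the other gene lists and the comparisons were chosen with earlier results of these data known. All 10 members are named. Of each other list, the most counted gene and the extreme ratios over all epithelial cells are named, and further genes after their values were seen. On simulated counts for all epithelial cells (14952 genes), the interval covered the simulated ratio of 95.6% of unchanged genes, and 96.0% of doubled and 92.0% of halved genes were found. For suprabasal-like cells (10938 genes) these shares were 96.2%, 86.0% and 84.0%. Alternatives changed the scaling, the cell filters, the depth, the gate and the class weights. Values of 1 gene of the lists are not reported here.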

Additional observations from a re-analysis of the deposited data

Results flagged for a closer look

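Dsc1 was the member counted as higher in KO in a class and lower in others. The ratio of KO over WT was 3.03 in inner follicle-like cells, 0.562 in Krt5/Krt14 cells and 0.299 in sebaceous-like cells. The difference between the classes was not tested, because each class has 1 library per genotype. The counts behind the values were 6 and 66 UMIs in inner follicle-like, 267 and 112 in Krt5/Krt14 and 40 and 12 in sebaceous-like cells. Dsc1 in fibroblast-like cells, where it is read as free RNA, stood at 2.27 in WT and 1.20 CPM in KO, against 4.29 CPM in WT inner follicle-like and 2.23 CPM in KO sebaceous-like cells. Under the alternatives the inner follicle-like ratio ranged from 1.31 to 3.54 and the sebaceous-like ratio from 0.294 to 0.351. The Krt5/Krt14 ratio ranged from 0.468 to 3.25, and its direction turned when cell types were taken from clusters (3.25) and without the cells in the top 10% of UMIs (1.12).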

How the results depend on the processing

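No paired analysis was possible because each genotype has 1 library. Over the 7 classes, 4 values were counted as higher and 7 as lower in KO. The number higher was 2 without the top 10% of cells by UMIs and 2 after thinning to 2000 UMIs, where the number lower was 4. Fewer UMIs were left to count after thinning, and the cause of the other change was not tested. Dsc1 in Krt5/Krt14 cells (0.562) reversed, to 1.12 without the top 10% of cells and to 3.25 by clusters. In all epithelial cells 1 gene was higher and 0 lower under each of the 10 alternatives run there, and Dsg1a lay between 1.69 and 2.15. Of the 68 pairs not counted in either direction, 56 stayed so under every alternative. Of 776 recomputed values of single genes, 567 lay inside the original interval, 207 outside it in the same direction and 2 were reversed. The number of members above Krt5/Krt14 cells in suprabasal-like cells of both libraries was 8 after thinning and by clusters. Scaling by the median ratio of genes moved log2 ratios by between -0.02 and 0.13. The alternatives with at least 10000 UMIs per cell, stricter limits on other cell types, no haemoglobin and no Krt79 were chosen after seeing the data. Depth limits Dsc2 and Dsc1 outside the classes where they are abundant, and the small inner follicle-like class of WT.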

Other observations

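Pkp2 and Dsg2 are desmosome genes outside the 10 described. Pkp2, the plakophilin of simple epithelia and heart, was highest in sebaceous-like cells in both libraries, at 32.2 in WT and 24.5 CPM in KO, and stood at 0.231 CPM (3 UMIs) in WT suprabasal-like cells, with 0 UMIs there in KO (upper bound 0.383 CPM). In inner follicle-like cells Pkp2 was at 5.72 CPM in WT (8 UMIs) and 18.1 CPM in KO (92 UMIs), a ratio of 3.17 (1.54 to 7.56). Dsg2 was lowest in suprabasal-like cells (2.85 and 3.63 CPM), followed by upper follicle-like cells (6.42 and 11.6 CPM). It stood at 35.3 and 48.3 CPM in Krt5/Krt14 cells (1.37), 33.0 and 54.6 CPM in cycling cells (1.66) and 45.0 and 25 CPM in inner follicle-like cells (0.555). Dsg4, the desmoglein of the hair cortex, had 3 UMIs in WT and 7 in KO over all epithelial cells.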
